A study of Mus musculus with 29 samples.

Results

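In all, 9 transcription factor genes were followed through 25 peak lists of mouse microglia and macrophages: the MEF2 genes Mef2a, Mef2c and Mef2d, the large MAF gene Maf, the zinc finger genes Klf2, Klf4, Klf6 and Egr2, and the basic helix-loop-helix gene Bhlhe41. They are 9 of 21938 protein-coding genes annotated on GRCm38. A listed region was assigned to a gene when it overlapped the gene body extended by 20 kb on each side, and each chromosome, start and end was counted once in a list. The 9 windows held 964 different regions of 1008691 in all lists. Mef2a (chr7:67231163-67372858, minus strand) had 221 of them, Mef2c (chr13:83504034-83667080, plus) 276, Mef2d (chr3:88142372-88172086, plus) 86 and Maf (chr8:115682942-115707794, minus) 79. Klf2 (chr8:72319033-72321656, plus) had 47, Klf4 (chr4:55527143-55532466, minus) 50, Klf6 (chr13:5861482-5870394, plus) 101, Egr2 (chr10:67535475-67542188, plus) 49 and Bhlhe41 (chr6:145858243-145865558, minus) 55. The windows ran from 42.6 to 203 kb, and those of Mef2a, Klf2 and Egr2 each held the start of 1 other protein-coding gene (Lysmd4, Gm10282 and Ado), so regions there could belong to either gene.

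MEF2 proteins bind A/T-rich sites and can switch between activation and repression, the latter through class II histone deacetylases. MEF2C is known in microglia as a brake on inflammatory responses. MAF is a leucine zipper factor of mature macrophages, KLF2, KLF4 and KLF6 are zinc finger factors with roles in myeloid activation and monocyte differentiation, EGR2 is an early response zinc finger factor, and BHLHE41 is a repressor that acts with its paralogue BHLHE40 in tissue macrophages. IRF8, the factor mapped here, is a myeloid transcription factor that binds DNA weakly by itself and often pairs with the ETS factor PU.1 at composite ETS-IRF sites. H3K4me1 marks enhancers and H3K27ac marks active enhancers and promoters.

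The assay was CUT&RUN, in which a nuclease tethered to an antibody cuts out the DNA around its target for sequencing. Female IRF8-EGFP mice, in which IRF8 carries GFP, gave the IRF8 lists through an anti-GFP antibody: sorted microglia (brain macrophages) at 9 days after birth (P9, 4 libraries), at 14 days (P14, 3) and in adults (3), and peritoneal macrophages (3). PU.1, H3K27ac and H3K4me1 were mapped in sorted microglia of female adult WT and IRF8KO mice, 2 libraries for each target and genotype. The protocol for growth gives 3 months as the age of WT and IRF8KO mice, read here as that of all adults. The labels do not say whether libraries came from different animals, so every p-value measures the spread between libraries, which may be technical. IRF8 in these lists is read through its GFP tag, and no list used here maps IRF8 in knockout cells, so no value checks the knockout label. Libraries had 7.25 to 24.7 M fragments, and lists held 1168 to 2068 different regions at P9. P14 lists held 7931 to 19243, adult lists 17048 to 29667 and macrophage lists 9788 to 23163. Each stage and the macrophages had an IgG control of their own, so stage and control cannot be told apart. Replicate 3 of adult microglia and of macrophages belongs to batch 2. The microglia label was checked by listed regions within 1 kb of marker gene starts: 6 of 7 microglia markers had H3K27ac in both WT libraries, and 0 of 4 neuron and 0 of 3 astrocyte markers had IRF8, PU.1 or H3K27ac in any library. The broad H3K4me1 lists differed from this: 2 of 4 neuron and 1 of 3 astrocyte markers had a region in at least 1 WT library, and 1 of 4 and 2 of 3 in the knockout, where all 3 neutrophil markers were listed too, against 1 in WT, and 3 of 4 T and B cell markers, against 0. Knockout H3K27ac listed 1 of these 4, Cd79a, and WT 0. Of the oligodendrocyte markers, Mbp and Mog had H3K27ac in both WT libraries, and Mog had none in the knockout. In IRF8 lists 6 of the 7 microglia markers had no region in any P9 library, 2 had none at P14 and 0 had none in adults, so these markers moved with stage as the counts below do. In knockout H3K27ac 3 of them, Tmem119, Sall1 and Cx3cr1, had no region, against 0 in WT. PU.1 had none at 5 of 7 in the knockout and at 2 in WT, whereas H3K4me1 had none at 0 in the knockout and at 2 in WT (Tmem119 and Sall1), and the part of such differences in the results below was not tested. Of 6 peritoneal markers, 1 was listed by all 3 macrophage IRF8 libraries and Selp, Lrg1 and Rarb by none, and of 3 neutrophil markers S100a8 was listed by all 3.

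The sequences that carry the results come from the sites listed earliest and from macrophage sites with no region in any adult microglial library. The first 3 are stretches of 200 bp of GRCm38 (RefSeq assembly), plus strand, from the only regions at the 9 genes that at least 2 P9 libraries listed. They are at chr13:83572063-83572262 and chr13:83609255-83609454 in introns of Mef2c, and at chr13:5888620-5888819 downstream of Klf6. In each region the stretch was chosen, after the values were seen, for the most matches to the letters GGAANNGAA (ETS-IRF composite), GAAANNGAA (interferon response like) and GGAAGT (ETS core) outside annotated UTRs. Capitals mark matches on either strand to these and to AAAAATAG (MEF2), TGCTGAC (MAF), GGGTGTG (KLF), GCGTGGGCG (EGR) and CACGTG (E-box).
Mef2c at 68.1 kb: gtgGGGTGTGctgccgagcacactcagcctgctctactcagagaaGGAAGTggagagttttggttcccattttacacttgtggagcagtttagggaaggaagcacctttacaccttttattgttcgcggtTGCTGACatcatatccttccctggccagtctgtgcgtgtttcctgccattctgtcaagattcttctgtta
Mef2c at 105.3 kb: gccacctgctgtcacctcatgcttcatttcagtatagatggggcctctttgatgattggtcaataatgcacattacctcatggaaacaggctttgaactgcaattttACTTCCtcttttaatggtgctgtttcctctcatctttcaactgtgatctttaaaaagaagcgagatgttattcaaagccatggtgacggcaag
Klf6 at 27.2 kb: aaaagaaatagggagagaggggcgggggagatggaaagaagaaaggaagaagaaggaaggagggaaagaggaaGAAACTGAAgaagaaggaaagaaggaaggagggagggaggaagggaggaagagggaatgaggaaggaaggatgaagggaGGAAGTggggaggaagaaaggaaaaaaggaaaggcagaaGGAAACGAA

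The Mef2c stretch 68.1 kb from the start held 1 ETS core, 1 MAF and 1 KLF match, and neither IRF motif. The stretch 105.3 kb from the start held 1 ETS core match, and the rest of its P9 region held 2 interferon response like matches. The Klf6 stretch held 1 match to each of the composite, the interferon response like and the ETS core motif, and 95% of its letters are A or G, a composition in which such purine letters recur. Its whole region held 2 composite matches. Among 3781 consecutive tiles of 200 bp over all P9 consensus regions, 13.3% held the composite, 8.57% the interferon response like motif, 28.2% the ETS core, 3.52% the MAF and 3.65% the KLF letters. A match is a description of the letters and not a binding site.

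At P9, IRF8 was listed at Mef2c and Klf6 and at none of the other 7 genes. The 4 P9 libraries listed 2, 1, 1 and 1 regions at Mef2c and 1 region each at Klf6. The Klf6 site, centred 27.1 kb downstream of the start and outside the gene (adult region chr13:5886976-5890226), was in all 4 lists, at an enrichment over the control, as the authors give it, of 4.10, 7.63, 6.72 and 6.02-fold. At Mef2c the site at 68.3 kb inside the gene (adult region chr13:83569137-83575486) was listed by replicates 1, 2 and 4, at 4.04, 5.74 and 5.63-fold. The intronic Mef2c site at 105 kb (adult region chr13:83608272-83610701) was listed by replicates 1 and 3, at 6.98 and 5.40-fold. Such values are the authors' and scaled within one list each. Those of different lists are set side by side only as a description, and no direction between stages or genotypes is read from them. A consensus region is a merged region listed in at least 2 libraries of a group, and 2 of 9 genes had one at P9, against 7% of all genes (percentages of all genes count those with at least 1 consensus region in the same kind of window).

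**Figure D1:**
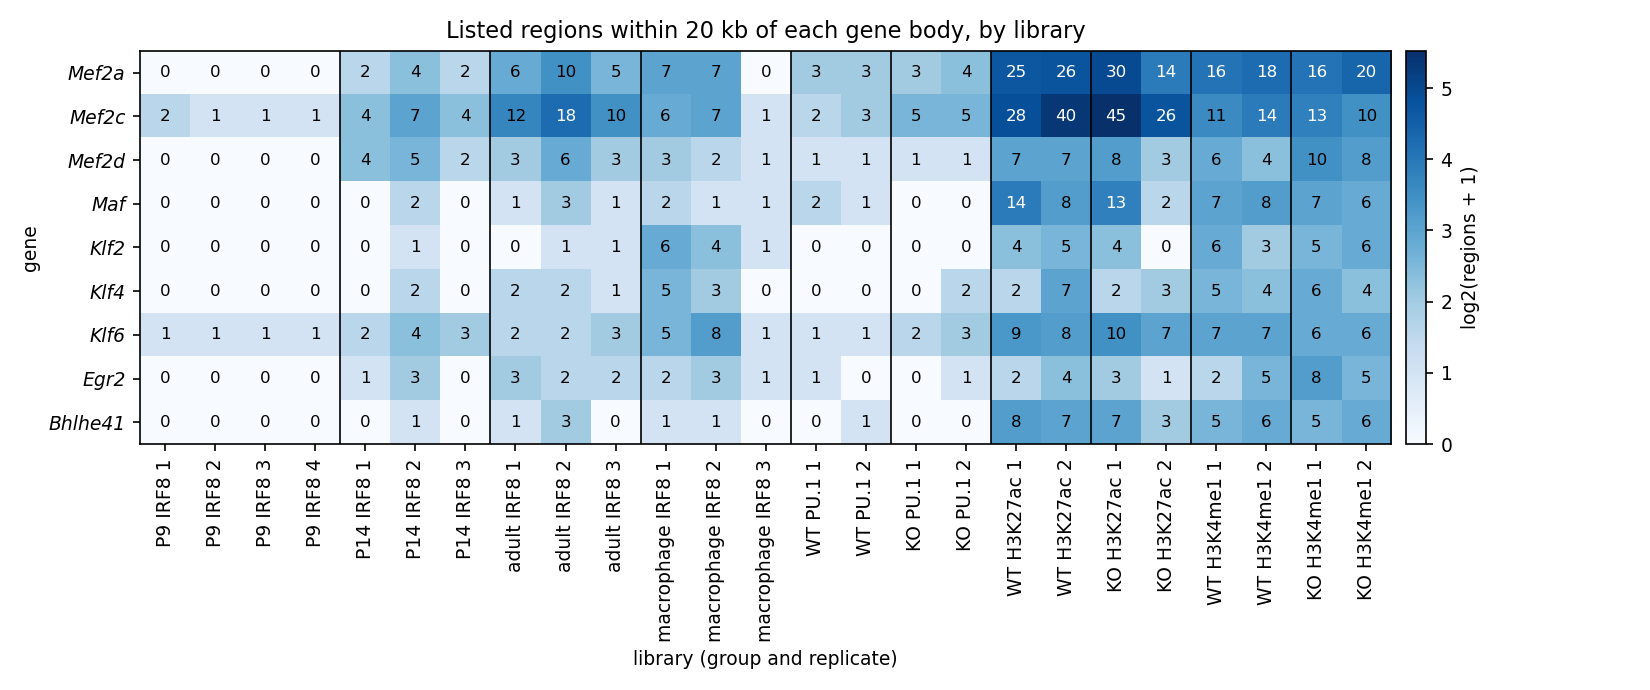
Number of different listed regions in the window of each of the 9 genes (rows) in each of the 25 libraries (columns, by group and replicate), coloured by log2(regions + 1). At P9 the only regions are at Mef2c and Klf6, and the histone lists hold the most.

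By P14 all 9 genes had a region in at least 1 library and 5 had a consensus region, against 32% of all genes. Mef2a went from 0 in every P9 library to 2, 4 and 2 regions at P14 and 6, 10 and 5 in adults, so that no stage overlapped the one before. Mef2c had 4, 7 and 4 regions at P14 and 12, 18 and 10 in adults, again without overlap. Mef2d had 4, 5 and 2 regions at P14 and 3, 6 and 3 in adults, and those stages overlapped. Maf had 0, 2 and 0 at P14 and 1, 3 and 1 in adults, and its overlap came from P14 replicate 2, the longest P14 list. The same library held the only P14 regions at Klf2 (1), Klf4 (2) and Bhlhe41 (1).

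Among the zinc finger genes, adult libraries listed 0, 1 and 1 regions at Klf2, 2, 2 and 1 at Klf4, 2, 2 and 3 at Klf6 and 3, 2 and 2 at Egr2. P14 values were 2, 4 and 3 at Klf6 and 1, 3 and 0 at Egr2, both overlapping the adults. Bhlhe41 had 1, 3 and 0 adult regions. In adults 8 of 9 genes had a consensus region, against 50.6% of all genes, and Klf2 was the exception. The number of adult consensus regions, 26, was 14 without replicate 1 and 12 without replicate 2, and the 15 at P14 became 7 without replicate 2.

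A trend over the ordered stages was tested for every gene by an exact Jonckheere-Terpstra permutation test (two-sided, 4200 assignments, Benjamini-Hochberg over 16472 genes with a region). Region numbers rose with stage at 6 of 9 genes, against 46% of all genes tested, while 0 genes fell. The statistic, at most 33, was 33 for Mef2a (exact permutation adjusted p = 0.0150), 33 for Mef2c (0.0156), 29 for Mef2d (0.0340), 27 for Maf (0.0379), 27 for Klf4 (0.0424) and 28.5 for Egr2 (0.0368). Klf6 had 26.5 (exact permutation adjusted p = 0.0785), Bhlhe41 24.5 (0.138) and Klf2 24 (0.165), beside a median of 26.5 over all genes. The lists also lengthened from P9 to adult, and stage and list length cannot be told apart in the counts. Divided by list length, 0 of 9 genes rose by the same exact test, against 0.449% of all genes. At an unadjusted p under 0.05 by that test 4 of the 9 rose, but the share of all genes at that level was not counted. Mef2c then had a statistic of 11 (exact permutation adjusted p = 0.436), on the other side of the midpoint of 16.5, and Klf6 had 0 (adjusted p = 0.0461), a fall that 96 genes showed. The statistic stayed within 2 of its value for Mef2a (31, exact permutation adjusted p = 0.0815), Klf4 (27, 0.0922), Maf (26, 0.145) and Egr2 (27, 0.145), and was 24 for Mef2d (0.278). Once all lists were shortened, by −log10 p, to the length of the shortest, only Mef2c, Mef2d and Klf6 kept a region and could be tested, and 0 of these 3 rose by the exact trend test (0 at an unadjusted p under 0.05), as did 0 of 3899 genes. With any 1 library other than P14 replicate 2 left out, 2 or 3 genes rose, Mef2a and Mef2c among them each time, against 9.72% to 40.7% of all genes.

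**Figure D2:**
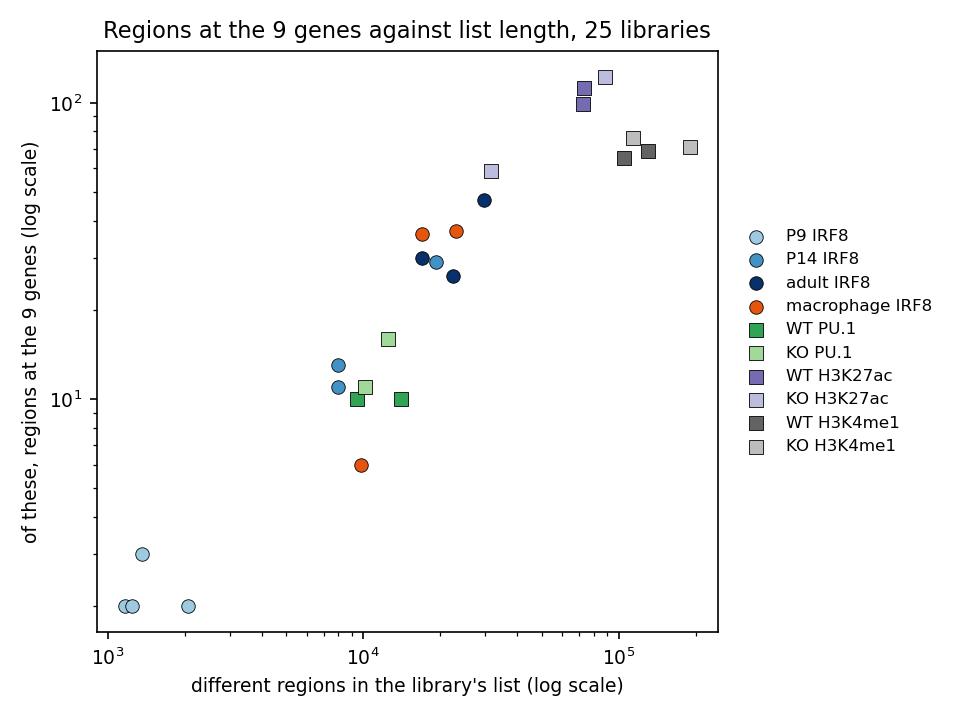
Regions at the 9 genes (vertical axis, log scale) against the number of different regions in the library's list (horizontal axis, log scale), 1 point per library, circles for IRF8 and squares for the other targets. P9 libraries sit at 2 or 3 regions, adult libraries at 26 to 47, and macrophage replicate 3 at 6 lies below the other IRF8 lists of its length.

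As a rate per 10000 regions of a list, the 9 genes together had 16.2 ± 5.06 regions in P9 libraries (SD, n = 4). The rate was 15.1 ± 1.23 in P14 libraries (n = 3) and 15.01 ± 3.09 in adult ones (n = 3). These differ by less than the spread between libraries. In lists of equal length the 9 genes had 3 consensus regions at P9, 2 at P14 and 2 in adults. Per 100 kb of window, adult IRF8 regions were 6.57 ± 2.05 (SD, n = 3) at Mef2c, 5.74 ± 2.48 at Mef2d, 4.99 ± 1.24 at Egr2, 4.77 ± 1.18 at Klf6, 3.85 ± 1.46 at Mef2a, 3.68 ± 1.27 at Klf4, 2.82 ± 3.23 at Bhlhe41, 2.57 ± 1.78 at Maf and 1.56 ± 1.35 at Klf2. No 2 neighbours in this order differed by more than their SDs.

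Adult consensus regions were ranked by their mean percentile over the libraries that listed them. The highest ranked lay away from the main start of the gene at Mef2c, Mef2d and Klf6. At the Klf6 site at 27.1 kb the enrichment was 16.7, 18.4 and 14.3-fold in the P14 libraries and 34.0, 30.7 and 13.3-fold in adults, on average at percentile 99.3 of an adult list ranked by −log10 p. At the Mef2c site at 68.3 kb, which covers the start of annotated shorter Mef2c transcripts, it was 17.1, 20.2 and 8.78-fold at P14 and 25.9, 25.9 and 12.3-fold in adults (percentile 98.3). Every P14 and adult library listed both. The strongest Mef2d region (chr3:88177535-88178192) lies 35.5 kb from the start, downstream of the gene. It was listed in all 3 P14 libraries at 7.21, 7.23 and 7.32-fold, in adult replicates 1 and 2 at 14.5 and 12.5-fold, and not in adult replicate 3.

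At the other 5 genes with an adult consensus region, the highest ranked one lay within 2 kb of the start, although single libraries could list a stronger region elsewhere. Mef2a was listed across its promoter (chr7:67372809-67374546) in every adult library, at 11.9, 8.97 and 7.04-fold, and in every P14 library. In adult replicate 3 an intronic Mef2a region 31.3 kb from the start was stronger, at 8.21-fold. Maf was listed at its start (chr8:115707196-115708292) in adult replicates 1 and 2, at 5.95 and 5.52-fold. A stretch over exons of Klf4 (chr4:55530298-55531409) was listed in replicates 1 and 2, at 6.22 and 5.13-fold, an intron of Egr2 (chr10:67537068-67537794) in all 3, at 9.69, 6.84 and 5.81-fold, and the Bhlhe41 promoter (chr6:145865906-145866945) in replicates 1 and 2, at 3.71 and 3.42-fold. The mean percentile of these regions was 44.1 at Klf4, 46.2 at Maf and 6.88 at Bhlhe41. Adult replicate 2 listed other regions, not shared with a second library, at percentile 69.6 (7.09-fold) for Maf and 34.2 (4.40-fold) for Bhlhe41.

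The 200 bp around the strongest summit of the highest ranked adult consensus region held none of the 3 IRF and ETS motifs, at any of the 8 genes with such a region. Over 16934 adult consensus regions, windows of this length held the composite in 7.17%, the interferon response like motif in 6.83% and the ETS core in 18.4%. The Klf4 window (chr4:55531230-55531429) held 1 EGR match, letters found in 0.154% of all windows, and the Klf6 window (chr13:5888258-5888457) 1 KLF match, found in 4.39%. Both are shown because they are the only matches of the 8 motifs in these windows, and the Egr2 window (chr10:67537542-67537741) because its region lost H3K27ac in the knockout.
Klf4 summit: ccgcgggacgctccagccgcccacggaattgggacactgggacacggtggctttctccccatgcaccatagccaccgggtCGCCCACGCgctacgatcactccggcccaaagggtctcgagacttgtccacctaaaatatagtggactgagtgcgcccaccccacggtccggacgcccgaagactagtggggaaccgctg
Klf6 summit: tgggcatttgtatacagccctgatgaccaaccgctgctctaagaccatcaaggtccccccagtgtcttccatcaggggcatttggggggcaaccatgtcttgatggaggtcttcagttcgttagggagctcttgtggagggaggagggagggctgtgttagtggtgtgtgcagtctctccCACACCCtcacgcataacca
Egr2 summit: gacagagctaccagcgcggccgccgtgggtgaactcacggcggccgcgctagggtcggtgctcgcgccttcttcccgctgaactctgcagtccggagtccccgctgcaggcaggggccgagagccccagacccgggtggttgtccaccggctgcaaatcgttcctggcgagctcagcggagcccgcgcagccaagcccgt

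Peritoneal macrophages placed IRF8 at all 9 genes, with 24 consensus regions in all, against 39.9% of all genes with one. Without replicate 1, or without replicate 2, the number of consensus regions was 5, and without replicate 3 it was 23. The 2 batch 1 libraries listed 37 and 36 regions at the 9 genes, and replicate 3, of batch 2, listed 6. Klf2 and Klf6 had the most macrophage regions per 100 kb, 8.60 ± 5.90 (SD, n = 3) and 9.54 ± 7.18. Klf2, a gene with no adult consensus region, had 6, 4 and 1 macrophage regions against 0, 1 and 1 in adult microglia, and the groups met at 1. With 3 against 3 libraries no exact two-sided test can go below 0.1, so none was made. Within batch 1 both libraries shared 3 regions at Klf2 in macrophages and 0 in adults.

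Of the 24 macrophage regions 12 (50%) overlapped an adult consensus region, against 56.3% of all macrophage regions, and 9 (37.5%) met no region in any adult library, against 30.5%. Klf4 had 3 of these 9, at 17.4, 20.8 and 23.4 kb from its start, downstream of the gene, while its 2 adult regions lay within 2 kb of the start. Klf2 had 2, at 1.43 kb upstream (enrichment 5.84 and 5.06-fold in replicates 1 and 2) and at 4.25 kb, beyond the gene's end. The latter (chr8:72322559-72324010) was the only one of the 9 in all 3 macrophage lists, at 7.94, 8.25 and 3.64-fold. Klf6 had 2, at 16.1 kb upstream and 13.95 kb from the start, and Mef2c and Bhlhe41 had 1 each. Replicates 1 and 2 listed all 9 and replicate 3 listed 1, so 8 of them rest on batch 1.

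Stretches of 200 bp from the Klf2 region and from the Klf4 region at 20.8 kb (chr4:55511437-55511860) were chosen by the same rule as for P9, that is for their ETS and IRF letters, so they do not stand for macrophage sites at large. Over their whole length, the Klf2 region 1.43 kb upstream held 0 composite and 0 interferon response like matches, and the Klf4 region at 23.4 kb held 0 composite matches. They lie at chr8:72322724-72322923 and chr4:55511441-55511640, plus strand, GRCm38.
Klf2 macrophage: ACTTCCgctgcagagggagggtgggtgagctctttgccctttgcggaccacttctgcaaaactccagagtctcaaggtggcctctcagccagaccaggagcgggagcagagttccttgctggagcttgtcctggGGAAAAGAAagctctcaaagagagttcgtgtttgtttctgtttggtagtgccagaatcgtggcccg
Klf4 macrophage: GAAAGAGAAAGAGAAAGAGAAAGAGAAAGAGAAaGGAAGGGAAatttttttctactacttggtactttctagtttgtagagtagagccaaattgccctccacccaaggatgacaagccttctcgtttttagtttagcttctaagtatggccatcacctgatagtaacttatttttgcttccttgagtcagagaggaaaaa

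The Klf2 stretch held 1 composite and 1 ETS core match, and its whole region held 3 and 2. The Klf4 stretch held 1 composite match and 5 overlapping interferon response like matches within 1 run of a repeated unit. Of 62383 tiles of 200 bp over all macrophage consensus regions, 8.53% held the composite, 8.54% the interferon response like motif and 20.1% the ETS core.

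**Figure D3:**
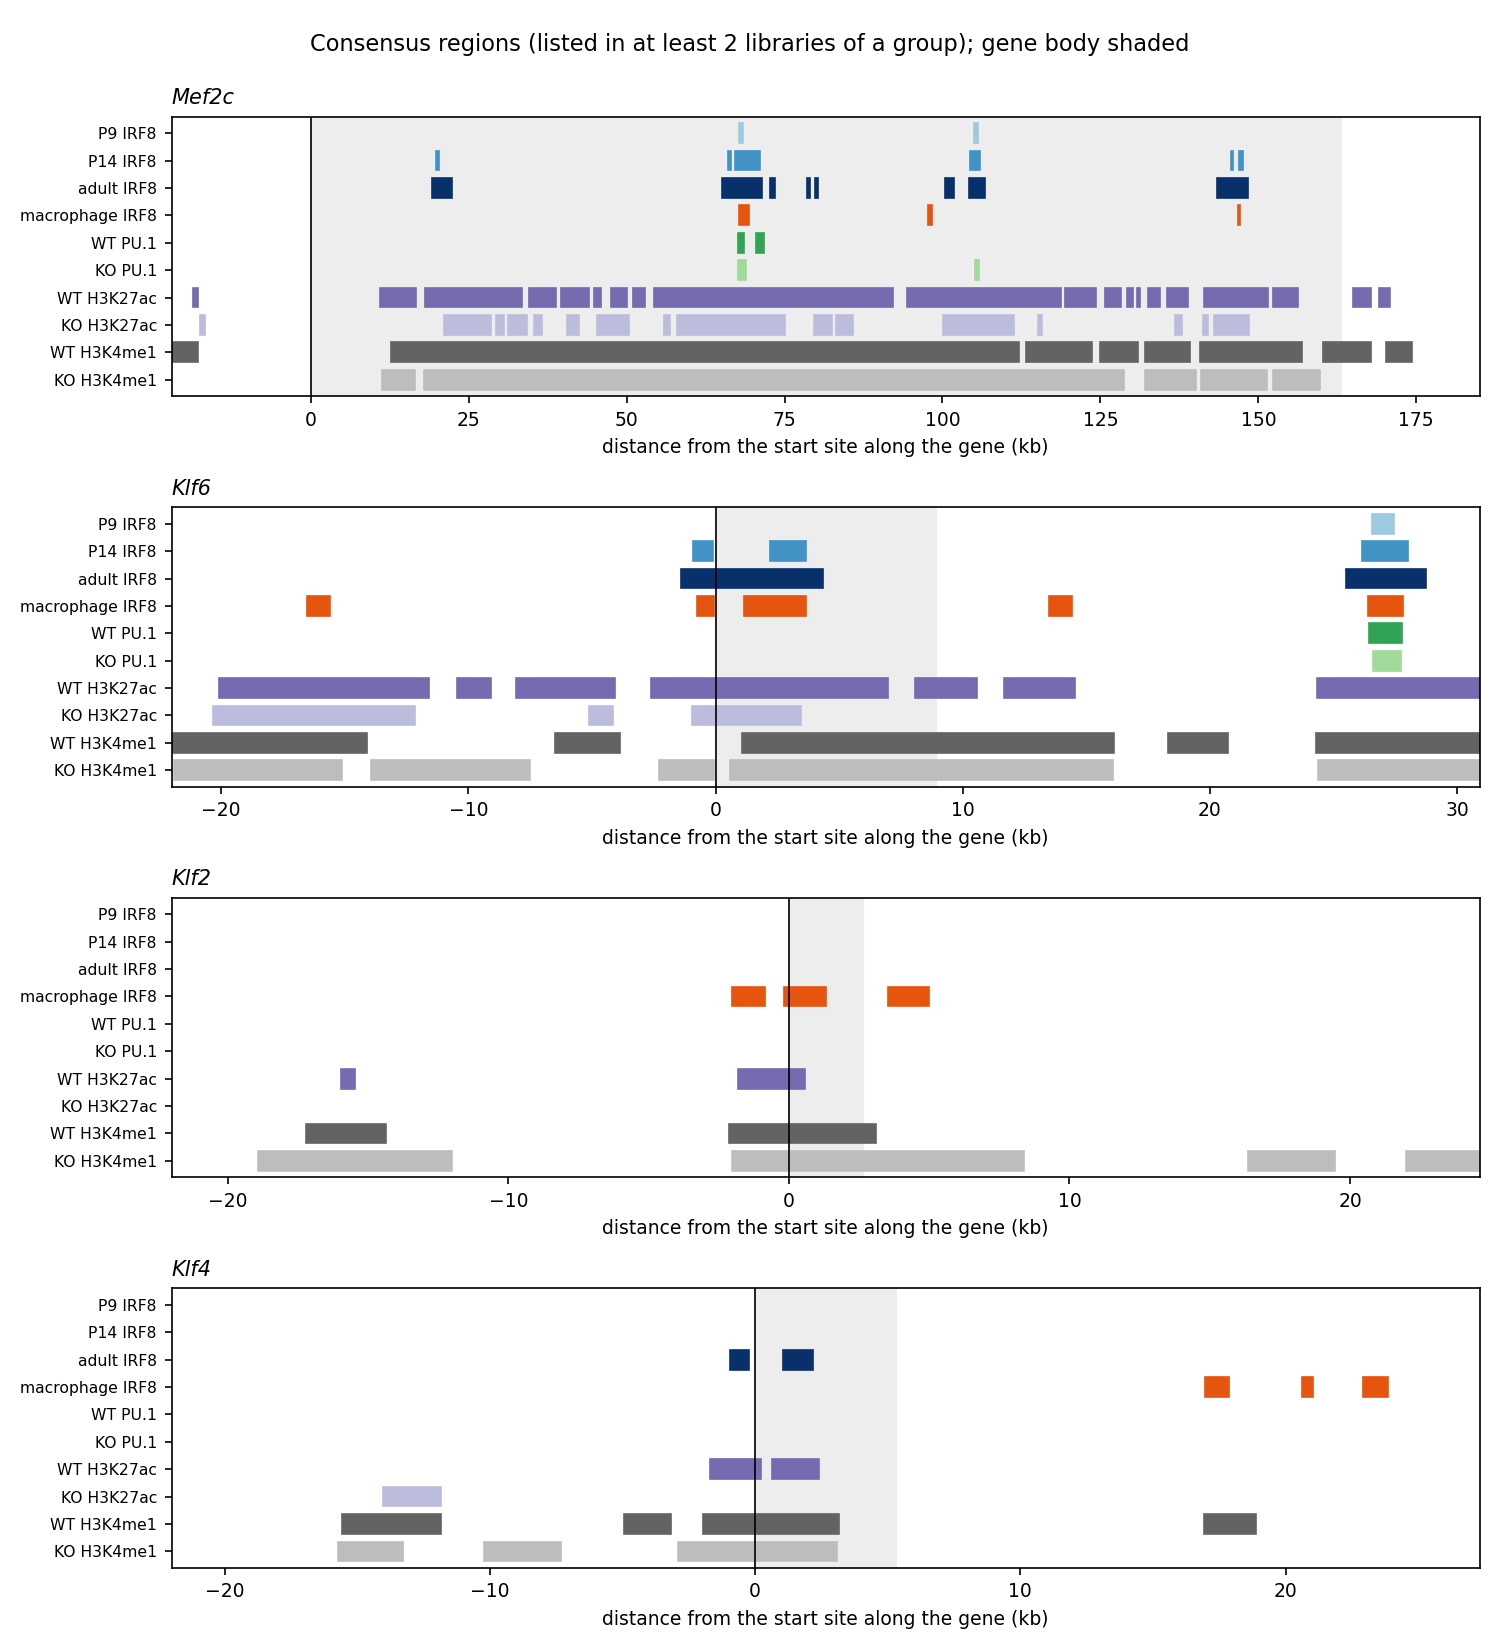
Consensus regions of each group (rows, 1 colour per group) along Mef2c, Klf6, Klf2 and Klf4 by distance from the start site in kb, with the gene body shaded; regions reaching past the window are drawn to its edge. Mef2c at 68.3 kb and Klf6 at 27.1 kb carry IRF8 and PU.1, whereas at Klf2 and 17 to 24 kb from the Klf4 start the only IRF8 consensus regions drawn are those of macrophages.

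In adult microglia the 26 IRF8 consensus regions at these genes sat in marked chromatin. H3K4me1 consensus regions of WT cells overlapped 25 of them (96.2%, against 91.3% of all adult IRF8 regions) and H3K27ac 21 (80.8%, against 81.8%). PU.1 consensus regions overlapped 4 (15.4%, against 27.04%): the Mef2a promoter, Mef2c at 68.3 kb, Mef2d at 35.5 kb and Klf6 at 27.1 kb. The PU.1 share was 18.2% to 26.9% with 1 library left out, highest without WT PU.1 replicate 1, where all regions of the other WT PU.1 library counted as consensus. In the knockout, H3K4me1 covered all 26 sites (100%, against 86.3%), H3K27ac 12 (46.2%, against 28.3%) and PU.1 4 (15.4%, against 20.8%), now with Mef2c at 105 kb in the place of Mef2d. These shares describe overlap of lists of unequal length and were not tested.

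PU.1 was listed at the 9 genes 10 times in each WT library and 11 and 16 times in the knockout. At least 1 PU.1 consensus region was present at 4 of 9 genes in WT, against 22.4% of all genes, and at 3 in the knockout, against 20.9%. None of the 6 WT regions was absent from both knockout libraries, against 25.1% of all WT PU.1 regions lost, and none of the 5 knockout regions was absent from both WT libraries, against 16.5% gained. With 1 library left out the lost share was 0% to 33.3% and the gained share 0% to 62.5%, both highest without knockout replicate 1. Where this left 1 library of a genotype, all of its regions counted as consensus, so these ranges also change the rule. The 62.5% is thus over the 16 regions of knockout replicate 2. At Mef2c the 68.3 kb site had PU.1 at 21.2 and 11.2-fold in WT and 17.9 and 11.8-fold in the knockout. At Klf6 the 27.1 kb site had PU.1 at 19.6 and 12.1-fold in WT and 9.71 and 9.56-fold in the knockout, between percentiles 91.1 and 98.6 of the 4 lists. The Mef2a promoter and an intronic Mef2a region at 54.0 kb (chr7:67318678-67319116) were also listed by all 4 libraries. A Mef2c region at 71.0 kb and the Mef2d region were listed by knockout replicate 1 and not by replicate 2, and the Mef2c site at 105 kb by WT replicate 2 and both knockout libraries. Maf had 2 and 1 PU.1 regions in WT and 0 and 0 in the knockout, but no region was shared by both WT libraries. Replicate 2 of both genotypes was called at a looser q-value (0.05 against 0.01) and with another control.

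Of the 3 targets, H3K27ac had the most regions absent in the knockout. Of 61 WT consensus regions at the 9 genes, 14 (23.0%) had no region in either knockout library, against 34% of all WT regions. Of the rest, 25 were in both knockout libraries, 20 in replicate 1 alone and 2 in replicate 2 alone. Knockout replicate 2 had 8.57 M fragments and 31524 regions, against 88400 in replicate 1. It missed 55.7% of the 61 regions (72.9% of all WT regions) and replicate 1 missed 26.2% (37.3%). Which gene lost how many was uneven. Mef2c kept 17 of 21 regions in at least 1 knockout library, Mef2a 11 of 12, Klf6 6 of 7 and Mef2d 4 of 5, whereas Bhlhe41 lost 3 of 5, Maf 2 of 5, and Klf2 and Egr2 1 of 2 each. Klf4 lost 0 of 2.

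In WT cells the 14 lost regions had a median percentile of 49.7 and a median width of 1122.5 bp, against 72.9 and 2701 bp for the 47 kept. The sets overlapped: the region lost at Mef2d, 14.4 kb from the start, was at percentiles 84.1 and 90.8, and a region kept at Mef2a, 29.0 kb from the start, at 18.6 and 24.6. All lost and kept WT regions had medians of 51.3 and 75.1. Of 15 WT regions at the 9 genes that overlapped an adult IRF8 consensus region, 1 was lost (6.67%, against 21.0% of all such regions), and of 46 without IRF8, 13 (28.3%, against 41.2%). The 1 was at Egr2 (chr10:67535945-67537992, 1.49 kb from the start, intron and exons), listed in WT at 6.17 and 5.999-fold. It overlaps 2 adult IRF8 regions, and H3K4me1 was still listed there in both knockout libraries. Kept regions with adult IRF8 had a median percentile of 91.6 and width of 7548.5 bp, and kept regions without it 65.2 and 2689 bp. The part of strength and width in the shares with and without IRF8 was not tested. At Mef2c the H3K27ac region over the 68.3 kb site was listed at 17.3 and 18.0-fold in WT and 11.8 and 7.66-fold in the knockout. At Klf6 the WT region over the 27.1 kb site (chr13:5885797-5894806) was at 7.22 and 9.68-fold in WT and met regions at 5.02 and 3.50-fold in the knockout, of which that in replicate 2 did not reach the adult IRF8 interval. At Klf2 knockout replicate 2 listed no H3K27ac region at all, against 4 in replicate 1 and 4 and 5 in WT.

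**Figure D4:**
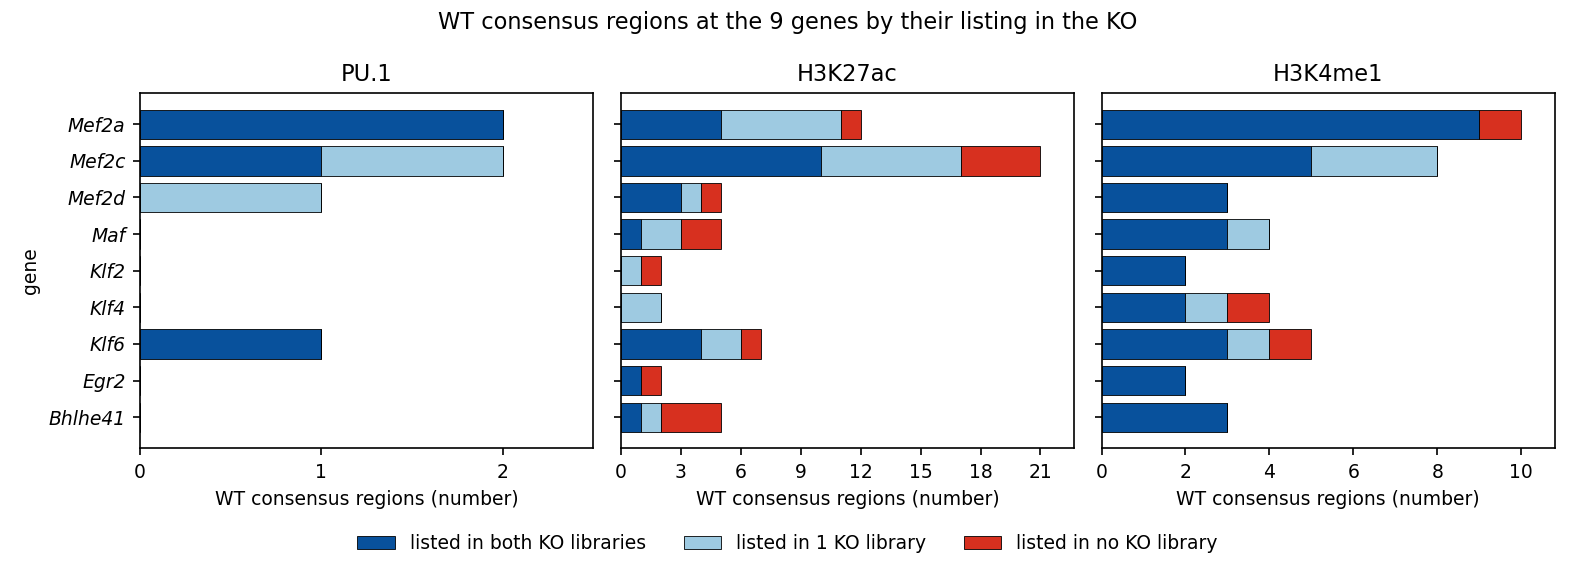
WT consensus regions at each of the 9 genes (horizontal axis, number of regions) for PU.1, H3K27ac and H3K4me1, stacked by whether both, 1 or no knockout library lists them. No PU.1 region falls in the last class, while 14 of 61 H3K27ac and 3 of 41 H3K4me1 regions do.

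Of 31 knockout H3K27ac consensus regions 1 (3.23%), 17.1 kb upstream of Mef2c (chr13:83486577-83487280), had no WT region, against 10.9% of all knockout regions. The share was 6.45% to 26.2% with 1 library left out, highest without knockout replicate 2, where all regions of replicate 1 counted as consensus. The neighbouring region 18.3 kb upstream was one of the 4 lost at Mef2c. H3K4me1 was lost at 3 of 41 WT regions (7.32%, against 13%), 1 each at Mef2a, Klf4 and Klf6, and gained at 5 of 50 knockout regions (10%, against 23.8%), 2 at Egr2 and 1 each at Mef2d, Klf4 and Bhlhe41. None of these 9 regions overlapped an adult IRF8 consensus region. Of all 6453 lost H3K4me1 regions only 345 did, so few would be looked for in 3, and gained regions have no such count here. The gained H3K4me1 regions were enriched 1.63 to 3.43-fold, at percentiles 3.67 to 90.4 of their lists. With 1 library left out, the lost share was 9.76% to 19.5%, highest without knockout replicate 1, and the gained share 10% to 32%, highest without WT replicate 1. A genotype left with 1 library again had all its regions counted as consensus. With 2 against 2 libraries no exact two-sided test can reach 0.05, so losses and gains are counts without a test.

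Other MEF2, MAF, KLF, EGR and BHLHE genes, and the class II histone deacetylases that bind MEF2 proteins, were read by the same rule. Of 29 such genes 27 had an IRF8 region in microglia and 11 rose over the stages, against the 46% of all genes. A consensus IRF8 region was present at 3 of the 29 at P9, 10 at P14 and 17 in adults, and at 14 in macrophages, beside 7%, 32%, 50.6% and 39.9% of all genes. Their P9 genes were Klf7, Egr3 and Hdac9. PU.1 was lost at 2 of 15 WT regions, both at Hdac9, and gained at 3 of 19, at Klf3, Klf13 and Hdac4, while H3K27ac was lost at 54 of 165 (32.7%). Over all regions these shares were 25.1%, 16.5% and 34%, against 13.3% and 15.8% for PU.1 here.

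The gene whose region numbers over the 25 libraries were most like those of a member, by Spearman's rho, was Gnaq for Mef2a (0.978), Jmjd1c for Mef2c (0.963), Sae1 for Mef2d (0.964), Fam185a for Maf (0.969) and Morf4l2 for Klf2 (0.946). For Klf4 it was Trpc4 (0.949), for Klf6 Dab2 (0.922), for Egr2 Cdk8 (0.931) and for Bhlhe41 Sypl (0.968). Among the 9 genes the closest pair was Mef2a and Mef2c (0.938). All libraries share their list length across genes, and the median rho of a member with all genes was 0.613 to 0.741.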

How the data were processed

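The 9 genes, their families and the related genes were chosen with earlier results of these data known. Sorted microglia and peritoneal macrophages were profiled by CUT&RUN, and 25 peak lists were used beside 4 IgG control libraries. Per the labels, 4 of 7 P9 IRF8 and 2 of 3 knockout H3K27ac samples were provided, and those were analysed. Cells for IRF8 and PU.1 were fixed in 1% PFA for 10 min before sorting, per the labels' protocols. The titles name peritoneal macrophages where the source label says microglia, and the titles were followed. Per the submitters' processing notes, bcl2fastq, Trim Galore, Bowtie2, deepTools and MACS2 were used with build mm10. Per the file headers, MACS 2.2.7.1 called IRF8 and PU.1 and MACS 2.2.6 the histone marks, each library by itself against IgG. The threshold was a q-value of 0.01, or 0.05 with another control for PU.1 replicate 2, and for H3K4me1 broad regions at a p-value of 0.01. The deposited lists give pileup (a signal, or coverage), fold enrichment over the control (a ratio) and −log10 p and −log10 q, all scaled by the authors.

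Entries with the same chromosome, start and end were counted once. Regions were assigned to protein-coding genes of GENCODE vM21 by windows of 20 kb around the gene body and an overlap of at least 1 bp. Merged regions listed in at least 2 libraries of a group were its consensus. Lost regions are WT consensus regions with no region in either knockout library, and gained regions the reverse. All 9 genes were named, with the adult region of highest mean percentile of −log10 p for each and every lost or gained region that met adult IRF8. The 200 bp stretches, the comparison by WT strength and the batch 1 values were added after values were seen. The trend and overlap code was tested on simulated data. The exact trend test ran on genes with a region in at least 1 of the 10 microglial IRF8 libraries. Alternatives were a window of 5 kb, −log10 p of at least 10, counts per list length, lists of equal length, no minimum on genes, an overlap of 50%, regions in all libraries, and leaving out each library. Where leaving out a library left 1 in its group, all regions of that 1 list counted as consensus. Python 3.11.15, numpy 2.4.6, pandas 2.3.3, scipy 1.17.1, pyfaidx 0.9.0.4 and matplotlib 3.10.9 were used. Expression was not measured, and bound regions are not assigned targets.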

Additional observations from a re-analysis of the deposited data

Results flagged for a closer look

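Among the 4 P9 libraries, replicate 1 stood apart in 2 of 3 measures examined: it listed 3 regions at the 9 genes against 2, 2 and 2 in the others, and 2 regions at Mef2c against 1, 1 and 1. In both, the gap to the other libraries was the whole range (a share of 1). Chance marks about 1 in 20 such groups, and a difference of 1 region among equal counts always does.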

How the results depend on the processing

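Of 299 alternative values, 107 for the main comparisons stayed close and 65 moved. Of those for the stage trend of single genes, 76 stayed the same, 48 were weaker, 1 was stronger, 1 moved and 1 reversed. Maf and Klf4 each stayed the same in 1 of 14 alternatives. Genes that rose with stage numbered 6, and 2 with a window of 5 kb (25.3% of all genes), 3 at −log10 p of at least 10 (16.8%), 0 per list length (0.449%), 0 of the 3 tested at equal list length (0%), 4 with no minimum on genes (26.8%; Maf and Klf4 lost the call, exact permutation adjusted p = 0.0505 and 0.0564), and 2 to 7 with 1 library left out. The 7 came without P14 replicate 2, and no share of all genes is given for that setting, so nothing is read from it. Mef2c reversed per list length, with a statistic of 11 (exact permutation adjusted p = 0.436). Consensus regions (P9 3, P14 15, adult 26, macrophage 24) became 1, 6, 11 and 9 at −log10 p of at least 10, 1, 7, 11 and 5 when required in all libraries, and 2, 2 and 1 at equal list length for the last 3 groups. With 1 library left out they were 2 to 3, 7 to 12, 12 to 22 and 5 to 23, lowest without P14 replicate 2, adult replicate 2 and macrophage replicate 1 or 2. Shares of adult regions met by another group moved to 100% (P9), 70% (P14), 40% (WT PU.1) and 60% (WT H3K4me1) at equal list length. At the length set by P9 only 2 adult regions were left, so 100% stands for 2 regions, and the other shares rest on fewer than 26. When required in all libraries the shares were 18.2% (macrophages), 100% (WT H3K27ac) and 100% (WT H3K4me1). At −log10 p of at least 10 they were 100% (WT H3K27ac) and 0% (WT H3K4me1), and at 5 kb 100% (WT H3K4me1). The 0% was fixed by the threshold, because H3K4me1 regions of WT replicate 2 at the 9 genes reached at most 6.88. Shares over all adult regions were not computed in these settings. With 1 library left out these shares were 7.69% to 25% (P9), 26.9% to 66.7% (P14), 15.4% to 50% (macrophages), 18.2% to 26.9% (WT PU.1), 80.8% to 100% (WT H3K27ac) and 88.5% to 100% (WT H3K4me1). Counting absence from the knockout consensus instead, H3K27ac lost was 63.9% and H3K4me1 lost 21.95%, and counting absence from the WT consensus H3K4me1 gained was 30%. Shares over all regions were not computed by this rule, so these values cannot be set against the genome. H3K27ac gained was 0% at 5 kb and 0% at −log10 p of at least 10. With 1 library left out, a genotype left with 1 list had all its regions counted as consensus, so the following ranges also change the rule. Lost shares were 0% to 33.3% (PU.1), 26.2% to 55.7% (H3K27ac, highest without knockout replicate 1) and 9.76% to 19.5% (H3K4me1). Gained shares were 0% to 62.5% (PU.1, highest without knockout replicate 1), 6.45% to 26.2% (H3K27ac, highest without knockout replicate 2) and 10% to 32% (H3K4me1, highest without WT replicate 1). The cause was not tested, beyond fewer regions or libraries by construction.

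The replicate block compared WT and knockout libraries of the same number, which for the histone marks share only a number and for PU.1 also a control and a threshold. Their deviations over 21938 genes correlated at 0.0123 (PU.1), 0.0635 (H3K27ac) and 0.159 (H3K4me1). Pairs 1 and 2 gave lost shares of 40% and 50% (PU.1), 42.4% and 69.6% (H3K27ac) and 15.4% and 29.0% (H3K4me1), and gained shares of 45.5% and 68.8%, 32.0% and 18.6%, and 15.8% and 39.4%. Each pair has 1 library a genotype, so all regions of that library counted and the shares lie above those over both. Shares over all regions were not computed for pairs, so these values say nothing particular to the member genes. The stage trend has no pairs.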
